A study of Mus musculus with 24 samples.

Results

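Of 9 named genes of salt and fluid transport across airway epithelium, 8 had a row among the 23891 genes of the expression table. They were Scnn1a, Scnn1b and Scnn1g, which encode the alpha, beta and gamma subunits of the epithelial sodium channel (ENaC); Prss8, which encodes the channel-activating protease prostasin; the anion channel and transporter genes Cftr, Ano1 and Slc26a9; and Slc12a2, which encodes the Na-K-2Cl cotransporter NKCC1. Atp12a, the non-gastric proton-potassium ATPase, was not analysed here. The rule used gene names and no measured value, and all 8 passed the filter of a mean of at least 1 CPM (read counts scaled to a common library total).

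Airway surface liquid is kept thin by sodium absorption through ENaC and hydrated by chloride and bicarbonate secretion. ENaC is an apical channel built from its 3 subunits, and sodium that enters through it leaves the cell by the basolateral Na,K-ATPase. Prostasin and other serine proteases raise the activity of ENaC, whereas SPLUNC1, the secreted product of Bpifa1, binds the channel and lowers its activity. Cftr is activated by cyclic AMP and Ano1 by calcium, and the chloride that both release is loaded into the cell by NKCC1.

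RNA-Seq was performed on the left lung lobe of C57BL/6 mice of 4 groups. Naïve adult mice were 20 wk old (n = 5) and naïve aged mice 80 wk old (n = 5), and both received saline; the naïve aged mice are called saline below. Aged mice of 80 wk received house-dust mite extract (HDM, 50 µg, a common airborne allergen) intranasally (n = 7), or HDM with the glucocorticoid dexamethasone (Dex, 4 mg/kg intraperitoneally every 72 h, n = 7), and lungs were taken 24 h after the last HDM. No adult mice with HDM were among the samples, so the response to HDM was measured in aged lungs alone. The tissue is whole lobe with alveoli, airways, vessels and blood cells, so a lower level of a gene can be fewer cells of a type or less RNA per cell, and these cannot be told apart.

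Depth, estimated from the spacing of low values, came to 10.05 to 33.11 M reads per library, which places 3 reads at 0.0906 to 0.2985 CPM, far below the lowest member value. 7SL RNA, a small non-coding RNA of the signal recognition particle, took 9.919 to 41.98% of a library. Its share was above 25% in 1 of 5 adult, 0 of 5 saline, 5 of 7 HDM and 4 of 7 HDM + Dex libraries. Because CPM values share 1 total, more 7SL leaves less for every other gene. Over the 17744 genes tested, the median log2 fold change was −0.23 in HDM vs saline and 0.19 in aged vs adult. Values after median-of-ratios rescaling, which brings these medians to −0.0096 and 0.0045, are therefore given beside the deposited CPM. By Xist and Ddx3y, genes of the X and Y chromosomes, the libraries were from 5 females in the adult group, 2 females and 3 males in the saline group, 2 and 5 in the HDM group, and 4 and 3 in the HDM + Dex group. Both female HDM libraries had a 7SL share under 25% and all 5 male HDM libraries had one above it, so sex and 7SL share cannot be told apart among HDM samples.

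Scnn1b and Scnn1g are neighbours on the forward strand of chromosome 7 (GRCm38), Scnn1g (ENSMUSG00000000216.8) from 121734479 to 121768475 and Scnn1b (ENSMUSG00000030873.9) from 121865038 to 121918514. Scnn1a (ENSMUSG00000030340.16) lies apart, between 125320659 and 125344943 on chromosome 6 and also on the forward strand. The 250 bases before the start of the neighbouring pair are shown because Scnn1b had the largest difference of the members below and Scnn1g is its neighbour; the sequences are from RefSeq (GRCm38.p6), and capitals mark each GC box, GGGCGG on either strand.
Scnn1g, chr7:121734229-121734478, forward strand: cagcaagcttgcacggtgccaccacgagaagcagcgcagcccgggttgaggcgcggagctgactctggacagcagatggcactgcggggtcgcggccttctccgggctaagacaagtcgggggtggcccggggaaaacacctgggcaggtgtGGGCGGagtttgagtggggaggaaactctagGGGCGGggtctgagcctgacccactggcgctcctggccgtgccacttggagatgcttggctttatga
Scnn1b, chr7:121864788-121865037, forward strand: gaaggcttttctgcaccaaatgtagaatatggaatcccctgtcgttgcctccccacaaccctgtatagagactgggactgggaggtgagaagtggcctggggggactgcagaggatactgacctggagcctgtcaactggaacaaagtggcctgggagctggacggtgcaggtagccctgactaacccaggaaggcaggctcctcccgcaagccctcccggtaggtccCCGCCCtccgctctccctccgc
Scnn1g had GC boxes at −98 and −67 from its start and Scnn1b had 1 at −22, and 32.7% of 32851 RefSeq promoter windows hold at least 1. The glucocorticoid half-site AGAACA (16.1% of windows), the AP-1 motif TGANTCA (6.7%) and the forkhead motif TGTTTAC (3.2%) were searched on both strands and were not in either window, which says only that these letters are absent there.

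Scnn1a was the highest of the 8 genes per kilobase of exon, with 50.4 ± 18.3 CPM per kb (SD, n = 5) in saline lungs. Scnn1b had 17.6 ± 3.44, Scnn1g had 16.5 ± 4.56 and Slc12a2 had 15.8 ± 3.15 CPM per kb there, and these neighbours in the order differed by less than their spread. Ano1 followed with 10.6 ± 2.22 CPM per kb and Prss8 with 9.06 ± 3.78 CPM per kb, which also overlapped. Slc26a9 had 5.74 ± 2.06 CPM per kb, and Cftr was the lowest with 1.64 ± 0.565 CPM per kb. In HDM lungs Scnn1a remained the highest (42.8 ± 8.10 CPM per kb, n = 7) and Cftr the lowest (2.10 ± 0.564 CPM per kb), while Scnn1b had 7.42 ± 3.80 CPM per kb and stood below Ano1 (11.7 ± 1.29), Slc12a2 (11.2 ± 1.51) and Scnn1g (10.8 ± 5.05 CPM per kb). The spreads of Scnn1b and Scnn1g overlapped in that group.

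**Figure D1:**
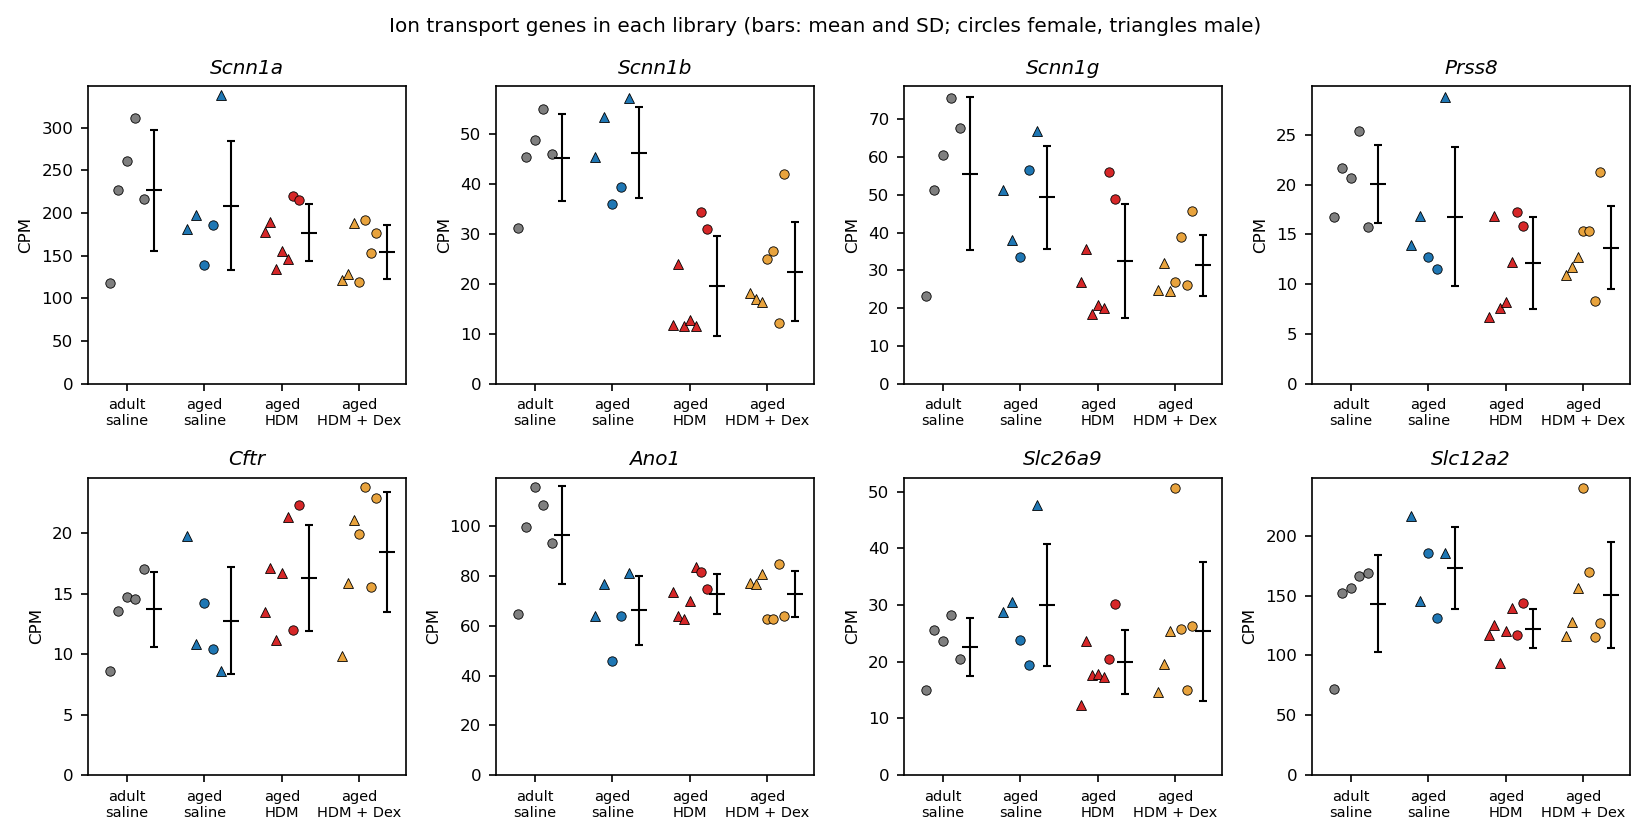
Deposited CPM of each of the 8 genes (y axis, from 0) in every library of the 4 groups (x axis); circles are female and triangles male libraries, and the bar beside each group gives the mean and SD. Every HDM value of Scnn1b (11.5 to 34.3 CPM) lies below every saline value (36.0 to 57.2 CPM), whereas the groups overlap for the other 7 genes.

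HDM vs saline, the comparison that asks how repeated allergen changed the aged lung, found lower Scnn1b and lower Slc12a2 among the 8 genes, and no gene higher. limma with Benjamini-Hochberg adjustment over all 17744 genes called 2 of 8, both lower, while 25.3% of all genes were called, 21.2% lower and 4.04% higher. The share of called genes among the 8 was therefore near that of all genes. After rescaling 1 of 8 was lower (Scnn1b; 11.6% of all genes) and 1 higher (Cftr; 10.9%), and over all genes the calls went from 717 higher and 3765 lower to 1930 and 2057. The median log2 fold change of the 8 genes was −0.47, and −0.22 after rescaling.

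Scnn1b was the member with the largest difference. The saline libraries had 45.4, 53.5, 36.0, 39.3 and 57.2 CPM. The HDM libraries had from 11.5 to 34.3 CPM with a median of 12.7 CPM, and the mean fell from 46.3 ± 9.05 CPM (SD, n = 5) to 19.5 ± 10.01 CPM (SD, n = 7). The groups did not overlap, HDM lower in 35 of 35 pairs of libraries; 7.69% of all genes tested had every HDM value below every saline value. The log2 fold change was −1.32 (SE 0.290, 95% interval −1.92 to −0.72, limma adjusted p = 0.00293), and −1.08 after rescaling (adjusted p = 0.00249). With any 1 library left out it was −1.48 to −1.23 on the deposited scale (adjusted p at most 0.00996).

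The HDM values of Scnn1b were spread over a wide range, with 4 of the 5 male libraries lowest and the 2 female libraries highest. The libraries of HDM replicates 6 and 7, female and with 7SL shares of 15.4 and 14.96%, had 34.3 and 30.9 CPM, and the male libraries had 11.5 to 12.7 CPM except replicate 2 with 24.0 CPM at a 7SL share of 28.6%, within the 27.1 to 34.0% of the other males. Rescaling left the same order, with 29.3 and 26.8 CPM in the female libraries, 26.6 CPM in replicate 2 and 13.0 to 14.3 CPM in the other 4. Naïve adult replicate 1, the library with the highest 7SL share of all (42.0%), had the lowest adult value of Scnn1b as deposited (31.2 CPM) and the highest after rescaling (51.3 CPM). The female HDM + Dex library with a 7SL share above 25% (replicate 6) had 12.1 CPM, or 14.1 CPM after rescaling, the lowest of its group on both scales. The HDM call was lost with the 7SL share as a covariate (log2 fold change −0.54, adjusted p = 0.175) and with only libraries of at most 25% 7SL, of which 2 were HDM (−0.47, adjusted p = 0.230), and likewise with both after rescaling (−0.62, adjusted p = 0.115, and −0.51, adjusted p = 0.180).

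Within males, all of whose HDM libraries had a 7SL share above 25%, Scnn1b fell by 1.84 on the log2 scale (limma adjusted p = 0.000267, n = 3 and 5), and by 1.51 after rescaling (adjusted p = 0.000652). In males limma called 31.3% of all genes. Of the members it also called Scnn1g, Slc26a9 (−0.96, adjusted p = 0.0173), Prss8 (−0.89, adjusted p = 0.0227) and Slc12a2 (−0.60, adjusted p = 0.0337), all lower. After rescaling it called 3078 of 17744 genes in males, and the calls of Scnn1b and Scnn1g (−0.73, adjusted p = 0.0260) remained among these members. In females it called 0.0113% of all genes and 0 of the 8 (1 at an unadjusted p under 0.05, Ano1). Within females the Scnn1b difference was −0.20 (SE 0.372, adjusted p = 0.846, n = 2 and 2). The difference between the sexes, females minus males, was 1.64 (SE 0.461, unadjusted p = 0.00196, limma adjusted p = 0.186) and did not pass the test. limma called 0 of all genes for this difference between sexes; the within-sex values were computed after the data were seen.

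**Figure D2:**
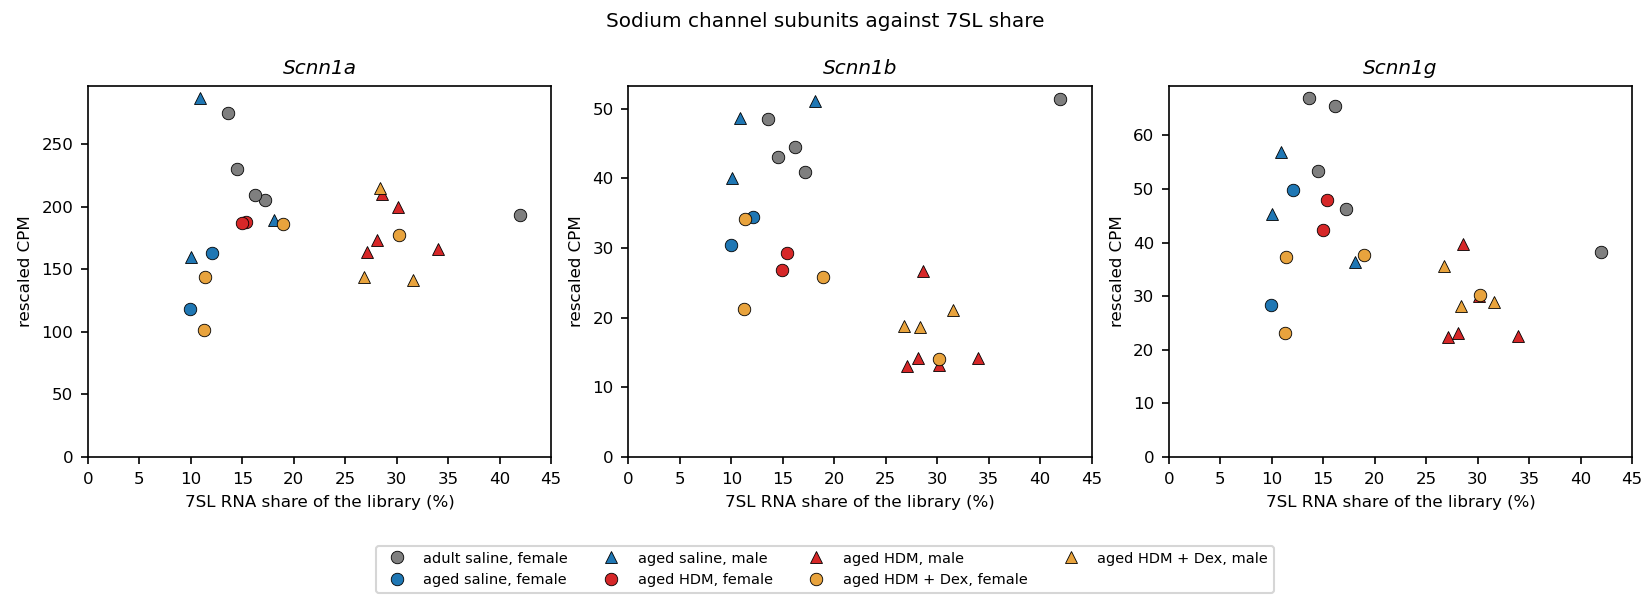
Rescaled CPM of the ENaC subunits (y axis, from 0) against the 7SL RNA share of the library in percent (x axis), 1 point a library, coloured by group, circles female and triangles male. At 7SL shares of 27.1 to 34.0%, 4 male HDM libraries have 13.0 to 14.3 rescaled CPM of Scnn1b and the other has 26.6, and the adult library at 42.0% has 51.3 (31.2 as deposited, the lowest adult value).

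Scnn1g, the gamma subunit gene beside Scnn1b on chromosome 7, had 51.2, 38.0, 33.6, 56.7 and 66.9 CPM in saline libraries. The HDM libraries had 18.3 to 56.2 CPM with a median of 26.8 CPM, lower in 29 of 35 pairs, and the groups overlapped through the female replicates 6 and 7 with 56.2 and 49.0 CPM and through replicate 2 with 35.7 CPM. The log2 fold change was −0.67 (SE 0.253, limma adjusted p = 0.0555) and missed the threshold, and it was −0.42 after rescaling (adjusted p = 0.133). It passed the threshold without saline replicate 2 or 3 or HDM replicate 6 or 7 (adjusted p = 0.0488, 0.0464, 0.0137 and 0.0224). Over all libraries left out in turn the adjusted p ran up to 0.149 on the deposited scale. Of 14 alternatives other than leaving out a library, 2 called Scnn1g lower. Within males Scnn1g had a log2 fold change of −1.07 (limma adjusted p = 0.00328). Within females it was 0.26, higher with HDM (adjusted p = 0.763). The difference between the sexes, females minus males, was 1.33 (adjusted p = 0.203).

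Scnn1a, the alpha subunit gene, had 181, 198, 139, 186 and 338 CPM in saline libraries and 134 to 220 CPM with a median of 178 CPM in HDM libraries. These ranges overlapped, with 21 of 35 pairs lower. The log2 fold change of −0.19 (SE 0.186, 95% interval −0.58 to 0.19, limma adjusted p = 0.455) became 0.061 after rescaling (adjusted p = 0.834), so no direction can be given.

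The ratio of 2 genes within a library does not depend on the library total, so the balance of ENaC subunit transcripts was compared by two-sided exact permutation tests, with Benjamini-Hochberg adjustment over 12 tests of 3 ratios in 4 comparisons. The ratio of Scnn1b to Scnn1a was 0.251, 0.270, 0.258, 0.212 and 0.169 in saline libraries. In HDM libraries it was 0.0660 to 0.156 with a median of 0.0860, lower in 35 of 35 pairs. The geometric mean fell from 0.229 to 0.101, a log2 difference of −1.19 (exact permutation p = 0.00253, adjusted p = 0.0152). The ratio of Scnn1g to Scnn1b was 0.711 to 1.44 in saline and 1.49 to 2.28 in HDM libraries, higher in 35 of 35 pairs, with geometric means of 1.05 and 1.69 (log2 difference 0.69, exact permutation p = 0.00253, adjusted p = 0.0152). The female HDM libraries, with ratios of Scnn1g to Scnn1b of 1.64 and 1.58, lay within the 1.49 to 2.28 of the male ones. Their ratios of Scnn1b to Scnn1a (0.156 and 0.144) lay above the 0.0660 to 0.127 of all male ones, and those of Scnn1g to Scnn1a (0.255 and 0.227) above the 0.134 to 0.189. Scnn1g to Scnn1a moved less, from a geometric mean of 0.240 to 0.170 (log2 difference −0.50, exact permutation p = 0.0455, adjusted p = 0.136). With at most 25% 7SL the log2 differences were −0.61 for Scnn1b to Scnn1a and 0.62 for Scnn1g to Scnn1b (exact permutation, adjusted p = 0.480 for both); with 2 HDM libraries the smallest p possible is 0.0952.

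**Figure D3:**
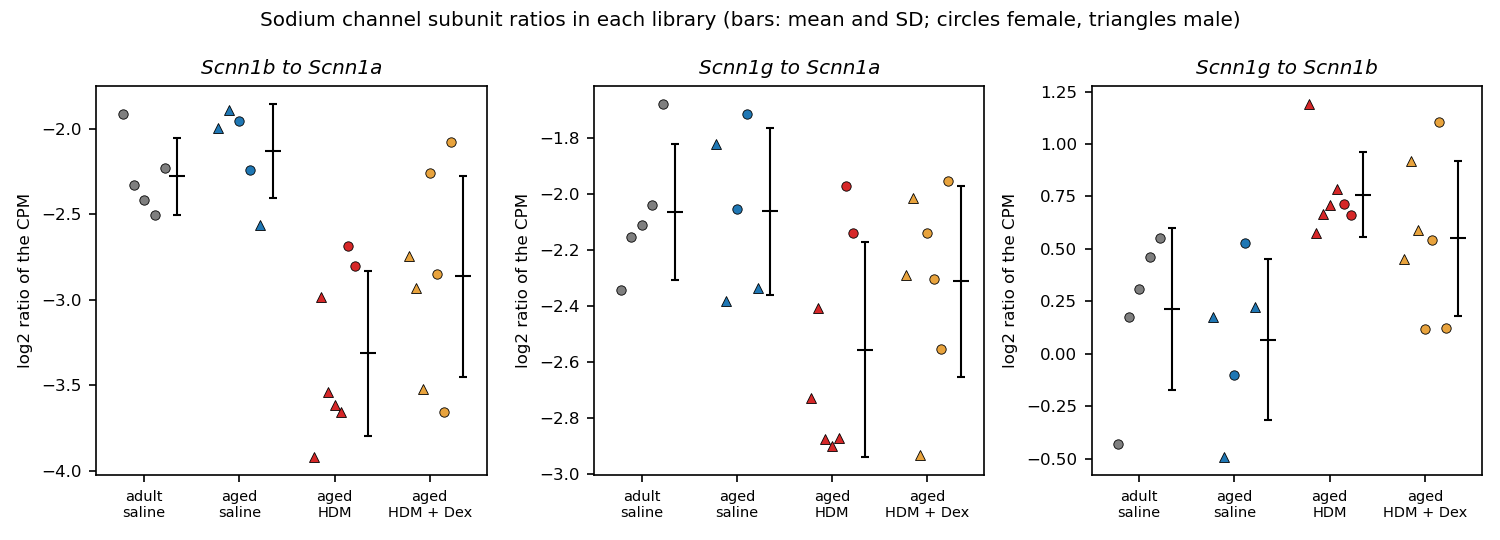
log2 ratio of the CPM of 2 ENaC subunit genes (y axis) in every library of the 4 groups (x axis), circles female and triangles male, with the mean and SD beside each group. HDM libraries lie below all saline libraries for Scnn1b to Scnn1a and above all of them for Scnn1g to Scnn1b, and HDM + Dex libraries spread across both.

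Markers of club and ciliated airway cells moved with Scnn1b, and those of goblet cells did not. Goblet markers had 2 of 7 higher and 0 lower with HDM (limma), where 4.04% of all genes were higher. Their median log2 fold change was 0.52. Of 6 club cell markers 5 were lower with HDM (limma), with a median log2 fold change of −2.28 and summed levels of 5185 to 7762 CPM in saline against 382 to 3134 CPM in HDM libraries. All 8 ciliated cell markers were lower, with a median of −1.55 and sums of 276 to 393 CPM against 56.7 to 243 CPM. Type 2 alveolar markers, 0 of 8 called by limma, had a median of −0.12, and 2 of 6 pan-epithelial markers were lower with a median of −0.41. Heart muscle markers were lower in 6 of 6, type 1 alveolar in 4 of 7, endothelial in 4 of 6 and smooth muscle in 1 of 6. After rescaling 7 of 8 ciliated, 5 of 6 club, 6 of 6 heart muscle, 4 of 7 type 1 alveolar (1 higher), 2 of 6 endothelial, 1 of 6 smooth muscle and 0 of 6 pan-epithelial markers were lower (limma). Over all genes 21.2% were lower on the deposited scale and 11.6% after rescaling. None of the club or ciliated markers was at 0. Across the 24 libraries with group means removed, Scnn1b followed the mean of the club markers with a Pearson r of 0.75 and of the ciliated markers with 0.70, whereas Scnn1g followed type 1 alveolar markers (0.76) and Scnn1a pan-epithelial markers (0.69). The genes closest to Scnn1b were Reep6 (0.879), the club cell cytochrome Cyp2f2 (0.868) and 1810010H24Rik (0.848). The closest were Myh14 (0.908), Sema3b (0.851) and Cdc42bpg (0.844) to Scnn1a, and Pakap (0.789), Flvcr2 (0.780) and Zfp365 (0.765) to Scnn1g. These are descriptions over libraries that share depth and scaling, and the part of airway cell number in the Scnn1b result was not tested.

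Prss8 (ENSMUSG00000030800.10, chromosome 7 from 127925716 to 127930104, reverse strand) had 13.9, 16.8, 12.7, 11.6 and 28.8 CPM in saline libraries and 6.68 to 17.3 CPM with a median of 12.2 CPM in HDM libraries. The groups overlapped. Its log2 fold change was −0.45 (SE 0.257, limma adjusted p = 0.197), and −0.22 after rescaling (adjusted p = 0.494). Prss8 followed Scnn1b (r = 0.74), Slc26a9 (0.63) and the ciliated and club markers (0.61 each), and its closest genes were Fam160a1 (0.872), Epn3 (0.856) and the receptor tyrosine kinase gene Erbb3 (0.851).

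Cftr (ENSMUSG00000041301.15, chromosome 6 from 18170687 to 18322768, forward strand) was not lower with HDM. The saline libraries had 19.7, 10.8, 14.2, 10.5 and 8.61 CPM, and the HDM libraries had 11.1 to 22.3 CPM with a median of 16.7 CPM, higher in 27 of 35 pairs. The log2 fold change was 0.34 (SE 0.222, limma adjusted p = 0.256). After rescaling it was 0.58 and passed the threshold (adjusted p = 0.0467), and in leaving out each library from the rescaled fit the adjusted p ran from 0.0161 to 0.134. Over the libraries Cftr followed Slc12a2 (r = 0.55) and the mean of 3 listed ionocyte markers, Atp6v1c2, Atp6v0d2 and Tfcp2l1 (0.49). Slc12a2 followed that mean more closely (0.58), but it followed heart muscle markers as closely (0.58), and type 2 alveolar markers with 0.47. Foxi1 and Ascl3, which define the rare Cftr-rich ionocyte, were not analysed here, so the ionocyte mean is a loose stand-in for it. The closest genes to Cftr were Rnf217 (0.871), Cyp4v3 (0.828) and Pias1 (0.779).

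Ano1 (ENSMUSG00000031075.18, chromosome 7 from 144588549 to 144751974, reverse strand), which smooth muscle also expresses, had 45.8 to 81.2 CPM in saline and 62.7 to 83.6 CPM in HDM libraries. These ranges overlapped, and the log2 fold change was 0.15 (SE 0.135, limma adjusted p = 0.406), or 0.41 after rescaling (adjusted p = 0.0914). Ano1 was the member that followed smooth muscle markers (r = 0.61), and it followed pan-epithelial markers nearly as closely (0.57). Its closest genes were Armc5 (0.824), Ei24 (0.820) and Tpcn2 (0.800). Slc26a9 (ENSMUSG00000042268.10, chromosome 1 from 131744022 to 131771504, forward strand), an anion transporter of airway epithelium, had 19.4 to 47.7 CPM in saline and 12.3 to 30.1 CPM in HDM libraries. It was lower in 30 of 35 pairs, with overlap, and its log2 fold change was −0.55 (SE 0.258, limma adjusted p = 0.118), or −0.31 after rescaling (adjusted p = 0.332). Slc26a9 followed type 2 alveolar markers (r = 0.61), and its closest genes were Tfcp2l1 (0.837), Myh7 (0.819) and Kctd6 (0.808).

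Slc12a2 (ENSMUSG00000024597.11) had 217, 146, 186, 131 and 185 CPM in saline libraries. The HDM libraries had 93.8 to 144 CPM with a median of 121 CPM, lower in 33 of 35 pairs, and the 2 groups overlapped only through saline replicate 4. Slc12a2 fell by 0.48 on the log2 scale (SE 0.169, limma adjusted p = 0.0389). The call was lost after rescaling (−0.23, adjusted p = 0.277) and with saline replicate 1 left out (−0.40, adjusted p = 0.124), and likewise without saline replicate 3 or 5 or HDM replicate 1, 3 or 4 (adjusted p = 0.0602 to 0.0918). Its closest genes were Wls (0.824), which carries Wnt proteins to the cell surface, Mfap3l (0.811) and Gm47493 (0.802).

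**Figure D4:**
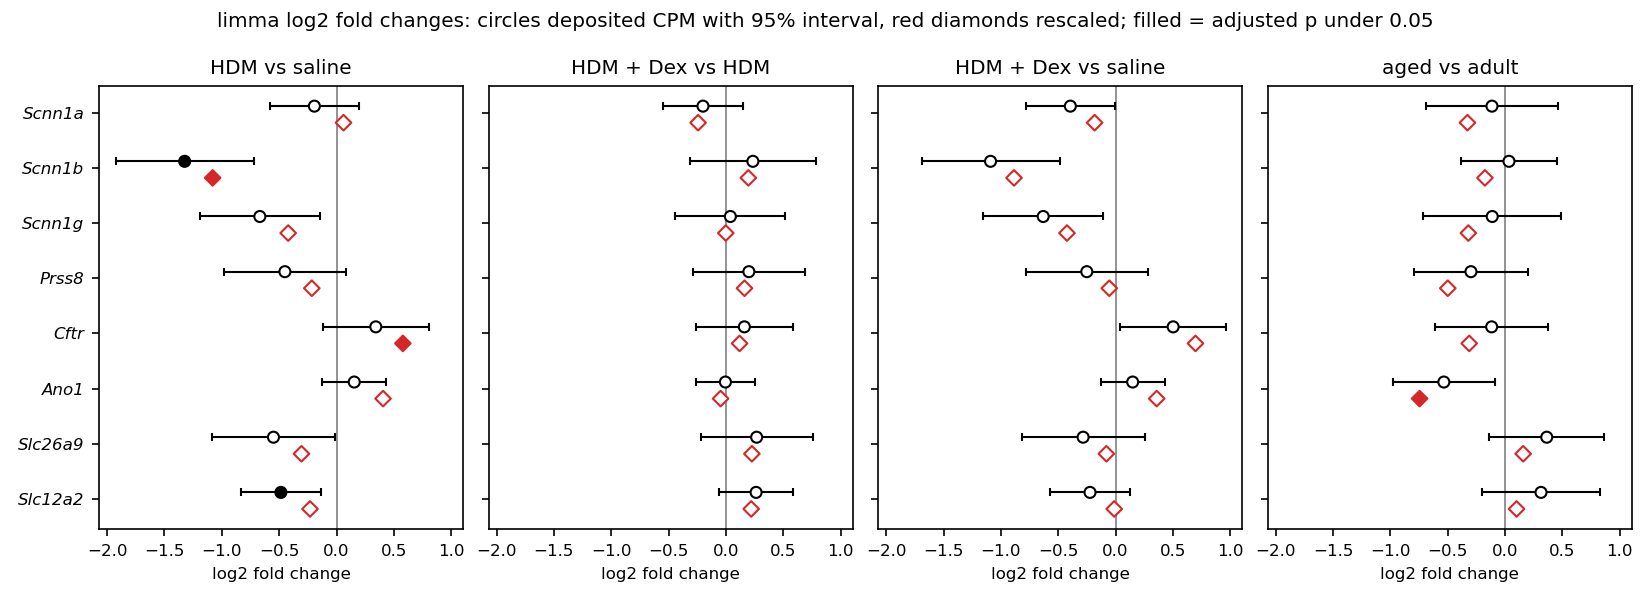
log2 fold changes (x axis) of the 8 genes (y axis) in the 4 comparisons from limma, circles with 95% intervals for deposited CPM and red diamonds for rescaled CPM, filled where the adjusted p was under 0.05. Scnn1b for HDM vs saline is filled on both scales (−1.32 and −1.08), Slc12a2 on the deposited scale, and Cftr for HDM vs saline and Ano1 for aged vs adult after rescaling.

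Regulators of ENaC were lower with HDM in 7 of 13 tested (limma), and none was higher, against 21.2% lower and 4.04% higher over all genes. Bpifa1 had 49.7 ± 51.0 CPM (SD, n = 5) in saline and 5.43 ± 8.39 CPM (SD, n = 7) in HDM lungs, a log2 fold change of −3.21 (limma adjusted p = 0.00388). Tsc22d3, which encodes the glucocorticoid-induced leucine zipper that raises ENaC at the cell surface, fell by 1.02 (limma adjusted p = 0.00191). Usp2, a deubiquitinating enzyme, fell by 0.98 (limma adjusted p = 0.00248). The other 4 were Nedd4l, the ubiquitin ligase that removes ENaC from the membrane, the steroid receptor genes Nr3c1 and Nr3c2, and the kinase gene Wnk1. Tsc22d3 and Usp2 lost their calls with the 7SL share as a covariate (limma adjusted p = 0.0938 and 0.0984). Bpifa1 lost its call with rescaling and at most 25% 7SL (adjusted p = 0.0711). The list's median was −0.49, and −0.26 after rescaling, when 5 were lower and 1 higher (11.6 and 10.9% of all genes).

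Of 8 proteases and inhibitors 1 was higher and 1 lower, and after rescaling 3 were higher (Plau, Tmprss4 and Furin) and none lower (limma). Over all genes 4.04% were higher and 21.2% lower, or 10.9 and 11.6% after rescaling. Plau, the urokinase gene, rose by 1.36 (limma adjusted p = 0.000737), and the serine protease gene Tmprss2 fell by 0.55 (adjusted p = 0.0244), a call lost after rescaling (adjusted p = 0.192). Of the genes for the Na,K-ATPase and its regulators, Fxyd1 and Atp1b2 fell by 0.77 and 0.71 (limma adjusted p = 0.0154 and 0.0232), and both calls were lost after rescaling (adjusted p = 0.0752 and 0.0843).

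Of 15 other anion channels and exchangers 3 were higher and 3 lower (limma), against 4.04% higher and 21.2% lower over all genes. After rescaling 4 were higher and 3 lower (10.9 and 11.6% of all genes). Slc26a4, the chloride-bicarbonate exchanger pendrin, rose from 3.99 ± 1.90 to 108 ± 65.1 CPM (log2 fold change 4.24, limma adjusted p = 2.83e-05). Clca1, a secreted goblet cell protein that increases Ano1 at the cell surface, rose from 0.528 ± 0.409 to 176 ± 145 CPM (log2 fold change 6.15, limma adjusted p = 8.88e-05). Slc26a6 rose by 0.62 (limma adjusted p = 0.0104). Slc4a4, a basolateral sodium-bicarbonate cotransporter, fell by 1.04 (limma adjusted p = 0.00103), the sodium-proton exchanger gene Slc9a2 by 0.99 (adjusted p = 0.0195) and Lrrc8a by 0.67 (adjusted p = 0.00945). Slc9a2 lost its call with the 7SL share as a covariate (limma adjusted p = 0.560). With at most 25% 7SL, Lrrc8a (adjusted p = 0.411) and Slc4a4 (0.0702) lost theirs. Slc26a6 lost its call with rescaling and the 7SL covariate (adjusted p = 0.12). Those of Slc26a4 and Clca1 were kept under every alternative. Goblet markers were higher in 2 of 7 (limma).

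All 5 potassium channel genes of secretory epithelium tested were called by limma, 1 higher and 4 lower, where 25.3% of all genes were called. After rescaling 1 was higher and 2 lower (10.9 and 11.6% of all genes). Kcnn4, a calcium-activated channel also of leukocytes, rose by 1.29 (limma adjusted p = 0.00476), while Kcne2 fell by 1.02 (adjusted p = 0.00943), Kcnma1 by 0.63 (adjusted p = 0.0141) and Kcnk5 by 0.58 (adjusted p = 0.0485). The Kcnk5 and Kcnq1 calls were lost after rescaling (adjusted p = 0.101 and 0.164). Kcne2 lost its call with the 7SL share as a covariate (limma adjusted p = 0.344), and Kcnma1 with at most 25% 7SL (0.434). Kcnn4 lost its call with rescaling and at most 25% 7SL (adjusted p = 0.0656). Leukocyte markers were higher in 1 of 6 (limma, 4.04% of all genes), with sums of 287 to 585 CPM in saline and 284 to 777 CPM in HDM libraries. After rescaling 3 of 6 were higher (10.9% of all genes), with sums of 244 to 514 CPM in saline and 316 to 673 CPM in HDM libraries. Of 4 aquaporins, Aqp4 fell by 1.64 (limma adjusted p = 0.0112, lost with the 7SL covariate at 0.515). Aqp1 fell by 0.52 (adjusted p = 0.0431, lost after rescaling at 0.153). Aqp5 had a log2 fold change of −0.64 (adjusted p = 0.152).

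HDM + Dex vs HDM, which asks what the steroid changed in challenged aged lungs, gave no difference past the threshold in any of the 8 genes. The HDM samples were 2 female and 5 male and the HDM + Dex samples 4 and 3, so Dex and sex are partly confounded. limma called 0 of 8, with 0 at an unadjusted p under 0.05, and 0.964% of all genes (133 higher and 38 lower, or 293 and 151 with 7SL left out of the total). Scnn1b had 18.2, 16.9 and 16.4 CPM in male and 24.9, 26.6, 12.1 and 41.9 CPM in female HDM + Dex libraries, a mean of 22.4 ± 9.95 CPM (SD, n = 7) against the 19.5 CPM of HDM. Its log2 fold change was 0.23 (95% interval −0.31 to 0.78, limma adjusted p = 0.780). The intervals of Scnn1a (−0.55 to 0.15), Scnn1g (−0.44 to 0.52) and Cftr (−0.26 to 0.58) likewise spanned 0. Those of Ano1 (−0.26 to 0.25), Slc26a9 (−0.22 to 0.76), Prss8 (−0.29 to 0.69) and Slc12a2 (−0.06 to 0.58) did too. The ratio of Scnn1b to Scnn1a had a geometric mean of 0.138 with Dex against 0.101, a log2 difference of 0.45 (exact permutation p = 0.145, adjusted p = 0.290). That of Scnn1g to Scnn1b was 1.46 against 1.69 (log2 difference −0.21, exact permutation p = 0.216, adjusted p = 0.303). Within females Scnn1b had −0.41 (limma adjusted p = 0.763) and Scnn1g −0.63 (unadjusted p = 0.0362, adjusted p = 0.566). Within males they had 0.30 and 0.19 (limma adjusted p = 0.652 and 0.773). None of the 8 genes was called in either sex, where limma called 0 of all genes in females and 304 in males. The Scnn1g difference between the sexes was −0.82 (unadjusted p = 0.0382, limma adjusted p = 0.879).

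Bpifa1 had 26.7 ± 15.3 CPM (SD, n = 7) with Dex, a log2 fold change of 2.37 over HDM (limma adjusted p = 0.0875). Ciliated markers were higher with Dex in 5 of 8 (limma), against 0.75% of all genes, with sums of 152 to 386 CPM. Their median log2 fold change was 1.18. Club and heart muscle markers had medians of 1.22 and 1.41 with 0 of 6 called in each. Smooth muscle markers had 1 of 6 higher, with a median of 0.46. No gene of the 6 transport lists was called on the deposited scale, and Plau was lower after rescaling (adjusted p = 0.0359; log2 fold change −0.86 before it).

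HDM + Dex vs saline measured what remained of the difference under Dex, and shares its saline samples with HDM vs saline. limma called 0 of the 8 genes (4 at an unadjusted p under 0.05: Scnn1a, Scnn1b, Scnn1g and Cftr) and 1.89% of all genes (79 higher and 256 lower, or 87 and 80 after rescaling). Scnn1b was lower in 33 of 35 pairs with a log2 fold change of −1.09 (95% interval −1.69 to −0.49, limma adjusted p = 0.0529), and HDM + Dex replicate 7 (41.9 CPM) was the library that overlapped saline. Leaving out each library in turn gave limma adjusted p from 0.0169 (−1.25, without that replicate) to 0.134 (without saline replicate 5), and under the threshold also without HDM + Dex replicate 4 (0.0437). Scnn1g had −0.63 (adjusted p = 0.171), Scnn1a −0.39 (adjusted p = 0.228) and Cftr 0.50 (adjusted p = 0.202). The log2 difference of Scnn1b to Scnn1a was −0.73 (exact permutation p = 0.0202, adjusted p = 0.0808), and of Scnn1g to Scnn1b 0.48 (exact permutation p = 0.0631, adjusted p = 0.152). Prss8, Ano1, Slc26a9 and Slc12a2 had log2 fold changes from −0.28 to 0.15. In the wider lists Clca1 (log2 fold change 7.77, limma adjusted p = 1.43e-05) and Slc26a4 (4.32, adjusted p = 2.01e-05) were higher. Lrrc8a (−0.73, adjusted p = 0.0403, lost after rescaling at 0.0542) and Tsc22d3 (−1.26, adjusted p = 0.00381, lost with at most 25% 7SL at 0.205) were lower. Bpifa1 had −0.84 (adjusted p = 0.488). Within males, whose HDM + Dex libraries all had over 25% 7SL, Scnn1b had −1.54 (limma adjusted p = 0.0113), or −1.21 after rescaling (0.0299). Scnn1g had −0.89 there (limma adjusted p = 0.0433), or −0.55 after rescaling (0.246). In males 1715 of 17744 genes were called, or 199 after rescaling. Within females Scnn1b had −0.62 (limma adjusted p = 0.663), with 12 genes called. The Scnn1b difference between the sexes was 0.93 (adjusted p = 0.658) and did not pass the test.

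Aged vs adult compared naïve lungs, 5 against 5. The adult samples were all female and the saline samples were 2 female and 3 male, so age and sex are partly confounded. limma called 0 of the 8 genes (1 at an unadjusted p under 0.05, Ano1) and 0.654% of all genes (105 higher and 11 lower, or 101 and 80 after rescaling). Ano1 had 64.7, 99.9, 116, 109 and 93.5 CPM in adult and 63.8, 76.8, 45.8, 63.9 and 81.2 CPM in aged libraries, lower in 23 of 25 pairs. The groups overlapped through adult replicate 1, the library with 42.0% 7SL. The log2 fold change was −0.53 (SE 0.210, limma adjusted p = 0.343), and after rescaling −0.75 (adjusted p = 0.0329), where 25 of 25 pairs were lower and 0.451% of all genes were called lower. With each library left out of the rescaled fit the adjusted p ran from 0.0230 to 0.0934. Smooth muscle markers, which Ano1 followed over libraries, had a median log2 fold change of −0.44, with 0 of 6 called by limma, and −0.65 after rescaling with 1 of 6 lower. Pan-epithelial markers, which Ano1 also followed, had medians of 0.0545 and −0.16, with 0 of 6 called on either scale. The part of either set in the Ano1 value was not tested.

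The ENaC subunits had log2 fold changes of −0.11 (Scnn1a), 0.033 (Scnn1b) and −0.11 (Scnn1g), with 95% intervals of −0.69 to 0.46, −0.39 to 0.45 and −0.72 to 0.49. The ratio of Scnn1b to Scnn1a had geometric means of 0.206 in adult and 0.229 in aged lungs (log2 difference 0.15, exact permutation p = 0.381, adjusted p = 0.457). In adult lungs Bpifa1 was at 139 ± 90.9 CPM (SD, n = 5), and in aged lungs at 49.7 CPM (log2 fold change −1.72, limma adjusted p = 0.164). The pathway gene called was Clca1, lower in aged lungs (5.46 ± 3.15 against 0.528 ± 0.409 CPM, log2 fold change −1.96, limma adjusted p = 0.00522). Its call was lost in 2 of 34 alternatives, among them all 24 samples in 1 fit (limma adjusted p = 0.346). Its aged level was low, as 3 reads were 0.106 to 0.21 CPM in those libraries.

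**Figure D5:**
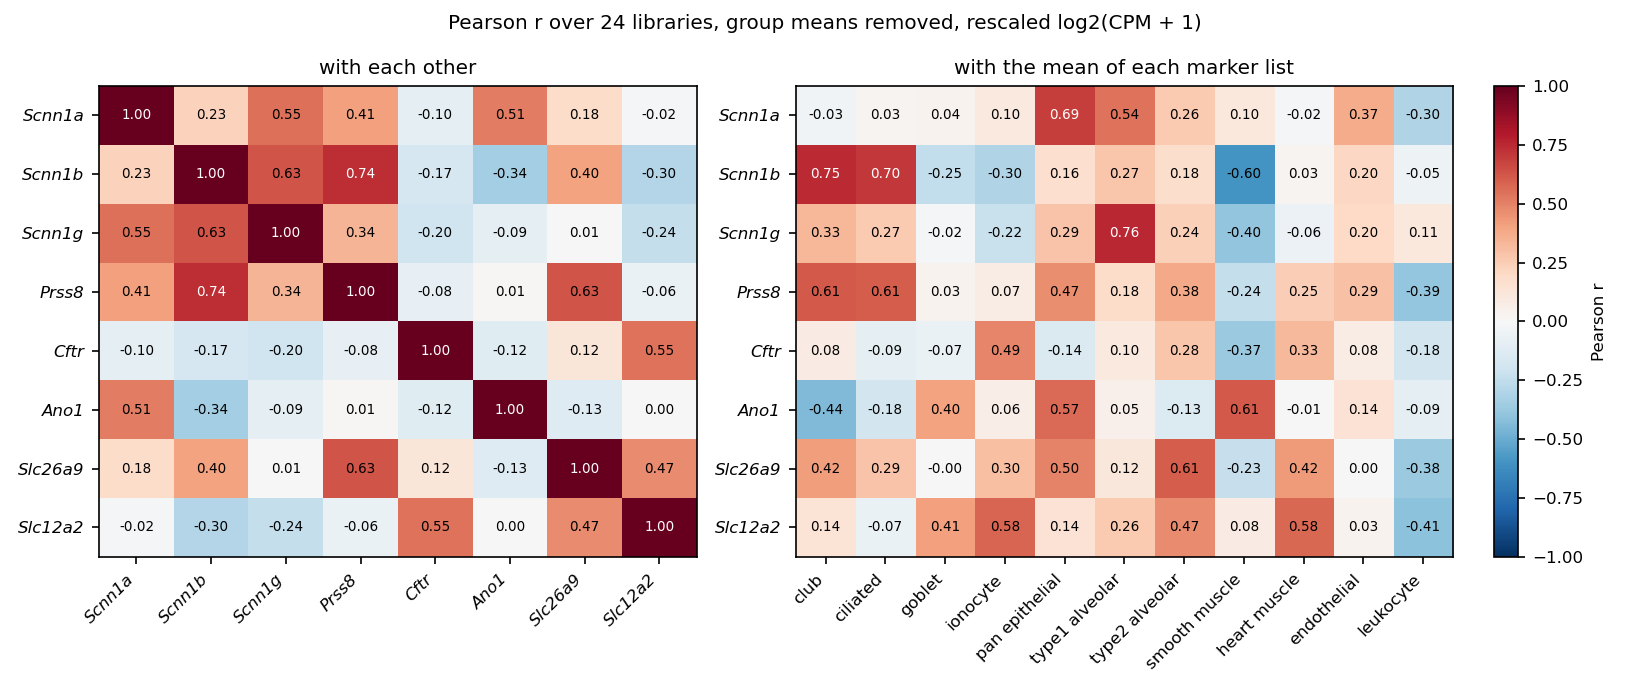
Pearson r of rescaled log2(CPM + 1) over 24 libraries with group means removed, for the 8 genes (rows) with each other (left) and with the mean of each marker list (right). Scnn1b goes with Prss8 (0.74) and with club (0.75) and ciliated (0.70) markers, Scnn1g with type 1 alveolar markers (0.76), and Cftr with Slc12a2 (0.55).

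Among themselves the members fell into loose sets over the 24 libraries. Scnn1b followed Scnn1g (r = 0.63) and Prss8, whereas Scnn1a followed Scnn1g (0.55) and Ano1 (0.51) and was little tied to Scnn1b (0.23). Cftr followed Slc12a2 (0.55) and none of the ENaC genes (−0.20 to −0.10). The lowest values were those of Scnn1b with Ano1 (−0.34) and with Slc12a2 (−0.30).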

How the data were processed

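Left lung lobes of 24 mice were sequenced (stranded mRNA libraries, paired ends). The authors deposited 1 table of CPM values (read counts scaled to the library total, with a constant of 0.0001 added) for 23891 genes. FastQC, STAR, DESeq2 and the build mm9 are named in the submitters' processing notes, and Picard, STAR and limma in the study's methods; coordinates in the table match GRCm38, which was used here. Replicates are separate animals.

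limma was run on log2(CPM + 1) for the 17744 genes whose mean reached 1 CPM, with a mean-variance trend, in 1 fit of the 19 aged samples and 1 of the 10 naïve samples, with Benjamini-Hochberg adjustment over all genes and a threshold of 0.05. Fold changes on this scale understate those of low genes. On simulated data with known changes the code was tested before use. Depth came from the spacing of low values, 80.32 to 85.4% of which were whole reads within 0.05; no count test was run. Marker sums and likeness (the 3 genes of highest r per member) are descriptions. All members and Bpifa1 were named in each comparison, and per pathway list and direction at most 3 called genes with the largest change were given values; Aqp5, outside this rule, was chosen after its values were seen. Some genes of the lists are not reported here. The members, lists and tests were chosen with earlier results of these data known. R 4.3.3, limma 3.58.1, Python 3.11.15 and scipy 1.17.1 were used. Alternatives were other filters, pseudocounts, scalings, covariates and sample sets. Same-numbered samples did not deviate together (Pearson r of −0.24 to 0.41), so no block was used. A file of download instructions was not used.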

Additional observations from a re-analysis of the deposited data

Results flagged for a closer look

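In 3 of 44 groups of values a library stood far from the others by Dixon's ratio at the 95% level, which chance alone flags in about 1 of 20 groups (2.2 of 44). Slc26a9 was 50.6 CPM in HDM + Dex replicate 4, the highest of 7, where the next was 26.4 CPM. Slc12a2 was 71.8 CPM in naïve adult replicate 1, the lowest of 5; that library had a 7SL share of 42.0%, and after rescaling its value was 118 CPM against 137 to 163 CPM in the other 4. The log2 ratio of Scnn1g to Scnn1b was 1.19 in HDM replicate 1, the highest of 7.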

How the results depend on the processing

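Scnn1b for HDM vs saline was lower under each of 14 alternatives other than leaving out a library, and kept its call in 10. The 4 that lost it took the 7SL share into account. None of the following values that changed sign passed the test under that setting, and the cause was not tested. Settings that join rescaling to another choice, and within-sex values, were chosen after seeing the data. With the 7SL share as a covariate the log2 differences of opposite sign were for HDM vs saline Prss8 0.11, Slc26a9 0.0259, for HDM + Dex vs HDM Ano1 0.0175, Scnn1g −0.0897, for HDM + Dex vs saline Prss8 0.19, Slc12a2 0.0246, Slc26a9 0.17 and for aged vs adult Scnn1b −0.13, Slc12a2 −0.0578. With libraries of at most 25% 7SL the log2 differences of opposite sign were for HDM vs saline Prss8 0.0545, Scnn1a 0.13, Scnn1g 0.13, Scnn1g to Scnn1a 0.00688, for HDM + Dex vs HDM Scnn1b −0.10, Scnn1g −0.52, Scnn1g to Scnn1a −0.0775, for HDM + Dex vs saline Ano1 −0.0425, Prss8 0.10, Slc12a2 0.0227, Slc26a9 0.18 and for aged vs adult Scnn1b −0.0919, Scnn1g to Scnn1a −0.067. With rescaling and the 7SL covariate the log2 differences of opposite sign were for HDM vs saline Ano1 −0.0368, Prss8 0.0285, for HDM + Dex vs HDM Ano1 0.0472, Scnn1g −0.0594, for HDM + Dex vs saline Prss8 0.14, Slc26a9 0.12 and for aged vs adult Scnn1b −0.0851, Slc12a2 −0.00989. With rescaling and sex the log2 differences of opposite sign were for HDM vs saline Scnn1a 0.0384, for HDM + Dex vs HDM Ano1 0.068, Scnn1g −0.054, for HDM + Dex vs saline Slc12a2 0.0182 and for aged vs adult Scnn1b −0.48, Slc12a2 −0.0559, Slc26a9 −0.27. With rescaling and at most 25% 7SL the log2 differences of opposite sign were for HDM vs saline Prss8 0.0201, Scnn1a 0.0916, Scnn1g 0.0961, for HDM + Dex vs HDM Scnn1b −0.0707, Scnn1g −0.49, for HDM + Dex vs saline Ano1 −0.0479, Prss8 0.093, Slc12a2 0.0174, Slc26a9 0.17 and for aged vs adult Scnn1b −0.13. With sex as a covariate the log2 differences of opposite sign were for HDM + Dex vs HDM Ano1 0.0375, Scnn1g −0.0851 and for aged vs adult Scnn1b −0.24, Slc26a9 −0.0371. With rescaling the log2 differences of opposite sign were for HDM vs saline Scnn1a 0.0608, for HDM + Dex vs HDM Scnn1g −0.00261 and for aged vs adult Scnn1b −0.18. With 7SL left out of the total the log2 differences of opposite sign were for HDM vs saline Scnn1a 0.0467, for HDM + Dex vs HDM Scnn1g −0.0116 and for aged vs adult Scnn1b −0.12. Of the 8 genes, limma called 0 for HDM vs saline with the 7SL covariate or at most 25% 7SL, with or without rescaling, and 1 with no trend or with rescaling and sex. For HDM + Dex vs saline it called 1, Scnn1b, with a mean of at least 5 CPM, with sex (also rescaled) and with only the groups compared. For aged vs adult it called 1, Ano1, with rescaling (also with sex). The HDM vs saline log2 ratios of Scnn1b to Scnn1a and Scnn1g to Scnn1b lost their calls as differences of medians (−1.54 and 0.54) and at most 25% 7SL (−0.61 and 0.62). Over all libraries the differences were −1.19 and 0.69, so at most 25% 7SL the first was smaller in size and the second was similar. With 2 HDM libraries of at most 25% 7SL the smallest p possible is 0.0952, so no call was possible there. The same holds for the replicate number as a block, with values of −1.41 and 0.72 and a smallest p of 0.0625 over 5 pairs. Under the block 2 of the 8 genes were called for HDM + Dex vs saline; same-numbered samples did not deviate together, so the numbers do not pair them. All-gene calls under the block were 5644, 8, 898 and 168 in the order HDM vs saline, HDM + Dex vs HDM, HDM + Dex vs saline and aged vs adult. Leaving out each library in turn, on both scales, gave 1 to 3 genes called for HDM vs saline, 0 to 1 for HDM + Dex vs saline and 0 to 1 for aged vs adult. Log2 differences of genes that changed sign, and of ratios that changed sign or call, ranged for HDM vs saline Scnn1a −0.32 to 0.24, for HDM + Dex vs HDM Ano1 −0.12 to 0.0349, Scnn1g −0.0792 to 0.19, for HDM + Dex vs saline Prss8 −0.36 to 0.14, Slc12a2 −0.34 to 0.0755, Slc26a9 −0.46 to 0.0844, Scnn1b to Scnn1a −0.86 to −0.60, for aged vs adult Scnn1a −0.50 to 0.0166, Scnn1b −0.26 to 0.12, Scnn1g −0.44 to 0.023, Slc26a9 −0.00776 to 0.50, Scnn1g to Scnn1a −0.0849 to 0.0994. Call changes of Scnn1g, Slc12a2, Cftr, Ano1 and Scnn1b on leaving out a library are given beside those results. Counts of all genes called that moved by over 1.5 times were, for HDM vs saline (4482 as reported) 1571 (7SL covariate), 1072 (at most 25% 7SL), 1172 (rescaling and 7SL covariate), 1215 (rescaling and at most 25% 7SL), for HDM + Dex vs HDM (171 as reported) 83 (no filter), 505 (rescaling), 444 (7SL left out), 563 (7SL covariate), 293 (sex), 11 (at most 25% 7SL), 1 (only the groups compared), 582 (rescaling and 7SL covariate), 543 (rescaling and sex), 9 (rescaling and at most 25% 7SL), for HDM + Dex vs saline (335 as reported) 213 (no filter), 167 (rescaling), 180 (7SL left out), 34 (7SL covariate), 1929 (sex), 221 (no trend), 28 (at most 25% 7SL), 519 (only the groups compared), 26 (rescaling and 7SL covariate), 27 (rescaling and at most 25% 7SL), for aged vs adult (116 as reported) 67 (at least 5 CPM), 181 (rescaling), 65 (all 24 samples in one fit). Depth limits no member value, since the lowest was 6.68 CPM; group sizes of 5 and 7 and the 7SL share limit the comparisons.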
